A study of Mus musculus with 6 samples.

Results

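Amino acid transporters are membrane proteins that carry amino acids and related small molecules into, out of and within cells. The 45 genes described here are those in the RNA-seq table of HAT1 WT and HAT1 KO primary mouse embryonic fibroblasts (pMEFs) whose symbols belong to the families Slc1a, Slc3a, Slc6a, Slc7a, Slc36a, Slc38a and Slc43a, of 17512 genes in all. Of them, 37 had enough reads to be tested, among 14773 tested genes. The pMEFs came from C57bl6 embryos of mid-gestation, from which the internal organs had been removed before the tissue was dissociated and plated. All lines were grown in DMEM with fetal bovine serum and antibiotics. HAT1 is a histone acetyltransferase whose main substrate is new H4, before its assembly into chromatin. The comparison asks how the genotype bears on transcription. The HAT1 WT group held 3 lines (36, 47 and 78) and the HAT1 KO group, homozygous for the mutant allele, also held 3 (33, 41 and 72). The labels do not say whether lines came from separate litters, so p-values measure only the spread between these lines.

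The Slc7 family holds cationic amino acid carriers and the light chains of heterodimers, which reach the plasma membrane with the glycoprotein heavy chain Slc3a2 (4F2hc or CD98) or Slc3a1. The Slc1 family takes up glutamate, or exchanges alanine, serine, cysteine and glutamine. The Slc38 family carries glutamine and other small neutral amino acids with sodium, and Slc36 includes proton-coupled carriers. Slc43 moves large neutral amino acids by facilitated diffusion, and Slc6 carries neurotransmitters, taurine, creatine and amino acids with sodium and chloride. In fibroblasts, as in most cells, these carriers feed protein synthesis, redox balance and the sensing of amino acids by the kinase complex mTORC1.

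Libraries held 67720628 to 98786746 counts. The lines differed in more than genotype. The 4 Y-linked genes examined had 13788 and 12841 counts in WT lines 36 and 47, 231 in WT line 78, and 4 to 8 in the KO lines. Genotype and embryo sex were therefore not balanced. Hat1 fell to 50.4% of its WT level, with reads still present in every KO line (log2 fold change -0.99, SE 0.12, adjusted p = 0.0376 in the edgeR quasi-likelihood test). With each line left out in turn its adjusted p lay between 0.0587 and 0.230. Fibroblast markers were abundant, with a summed level of 71176 to 76577 CPM (counts relative to each library's TMM-scaled size) in WT lines and 57738 to 89814 CPM in KO lines. Epithelial markers summed to at most 2.49 CPM and endothelial ones to at most 14.7 CPM in any line. Neural and glial markers summed to 60.8 to 77.6 CPM in WT lines and 134, 72.5 and 215 CPM in KO lines 33, 41 and 72. The 18 macrophage markers were plentiful in all lines and lower in KO lines, as described beside the transporters below.

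Few amino acid transporters passed a test between genotypes. Slc7a8 was the 1 transporter that fell at an adjusted p under 0.05 in edgeR, and none rose. That is 2.70% of the 37 tested, beside 0.528% of all tested genes called lower and 0% called higher. For higher transporters the count was 1 at an unadjusted p under 0.05, or 2.70% beside 5.88% of all genes. It was 1 at an adjusted p in DESeq2 (Slc7a6), where 222 of all genes were higher, and 0 in voom. By a rule of 1.5-fold or more and an unadjusted p under 0.05, 3 transporters were lower, namely Slc7a8, Slc43a2 and Slc1a2, or 8.11% beside a background of 4.62%. None was higher by that rule, beside 1.5% of all genes. The levels of all 3 KO lines lay below those of all 3 WT lines for 5 transporters (13.5%, background 12.4%), which added Slc7a4 and Slc7a15. They lay above for 1, Slc7a6 (2.70%, background 9.59%). The median log2 fold change over the 37 was -0.031, beside 0.0085 over all tested genes, with 16 positive and 21 negative values between -1.24 and 0.86. The shares of transporters with separate lines were thus near or below those of all genes.

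**Figure D1:**
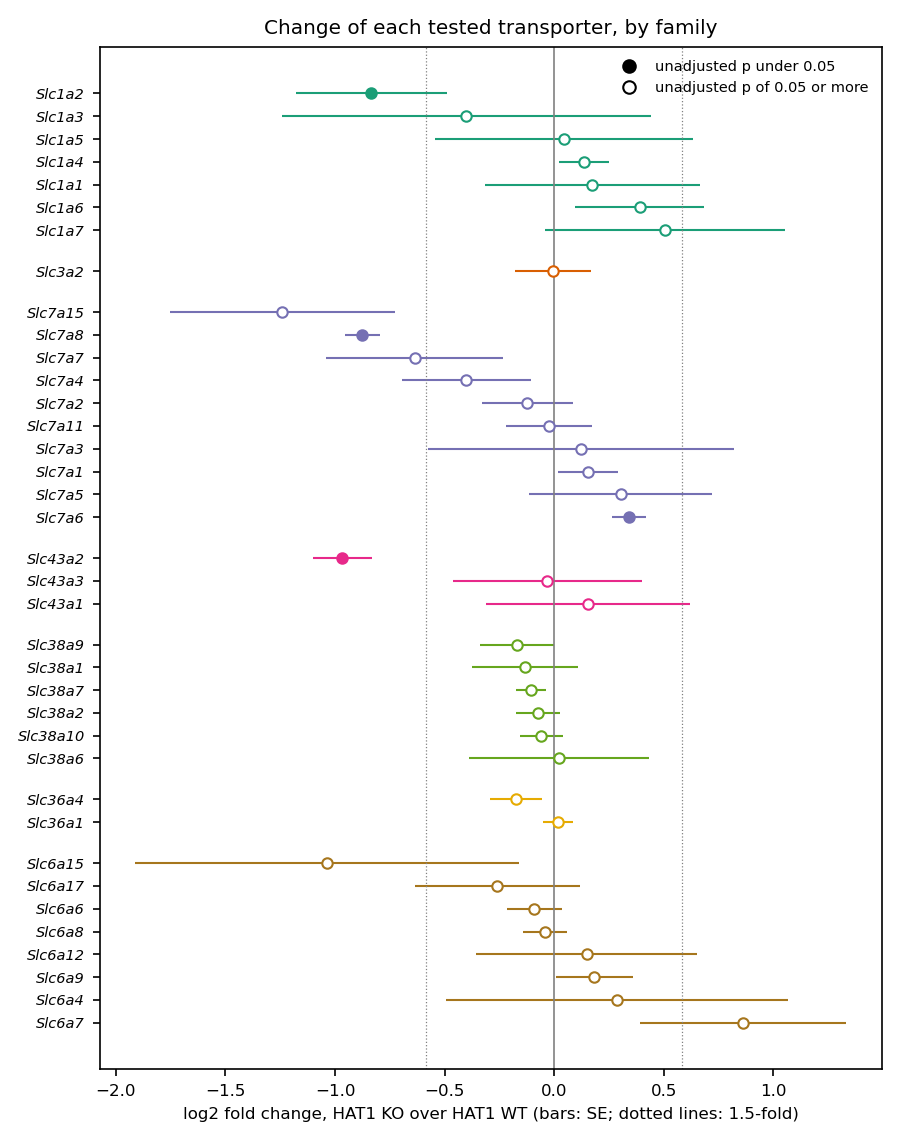
Fitted log2 fold change of HAT1 KO over HAT1 WT (horizontal axis) for each of the 37 tested transporters, grouped and coloured by family, with bars for the SE over 3 lines a genotype. Filled points, for Slc7a8, Slc43a2, Slc1a2 and Slc7a6, have an unadjusted p under 0.05, and most others sit between the dotted lines at 1.5-fold or carry wide bars.

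Slc7a8 (ENSMUSG00000022180) encodes LAT2, a light chain of Slc3a2 that exchanges neutral amino acids across the membrane. The gene lies on the minus strand of chromosome 14, at chr14:54722209-54781946 of GRCm38, and no other annotated gene shares its exons. WT lines 36, 47 and 78 had levels of 80.3, 82.8 and 72.1 CPM (6057, 6666 and 7139 counts). The levels of KO lines 33, 41 and 72 were 40.0, 44.8 and 43.4 CPM (3563, 3028 and 3345 counts). The genotypes did not overlap, and the 3 KO lines lay close together. Mean levels were 78.4 ± 5.57 CPM for WT and 42.7 ± 2.46 CPM for KO lines (SD, n = 3 each), a drop to 54.5%. The log2 fold change was -0.88 (SE 0.08, 95% interval -1.07 to -0.68), with an adjusted p of 0.0320 in edgeR, and the gene ranked 8 by p among all tested genes.

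With 1 line left out, the log2 fold change lay between -0.93 and -0.83. The adjusted p stayed under 0.05 without KO line 72 (0.0470). It was 0.182 without WT line 36, 0.230 without WT line 47, 0.109 without WT line 78, 0.0942 without KO line 33 and 0.0533 without KO line 41. WT line 36 was the only line in lane 8, so a model with the sequencing lane compares the genotypes within lanes 6 and 7 alone. In that model the adjusted p was 0.529, at a log2 fold change of -0.86. These settings called few genes of any kind, with 0 to 5 lower over all genes without WT line 36, 47 or 78 or KO line 33 or 41, and 2 with the lane in the model, beside 78 in the main test and 71 without KO line 72. Within lane 6, the log2 differences of KO lines 33 and 72 from WT line 47 were -1.05 and -0.93. Within lane 7, the difference of KO line 41 from WT line 78 was -0.69. Line 78 is also the WT line with few Y-linked reads. With it as the only WT line the log2 fold change was -0.74. In that fit the spread comes from the KO lines alone, and 0 of 15553 genes passed an adjusted p in edgeR.

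The 250 bases before the RefSeq transcript start of Slc7a8 are shown because it is the transporter with the firmest difference. They span chr14:54781887-54782136 of GRCm38.p6, on the minus strand, and 55.6% of them are G or C. A window of Slc43a2, the transporter described next, spans chr11:75531444-75531693 on the plus strand, with 62.8% G or C. Another RefSeq start of Slc43a2 has its window at chr11:75531862-75532111, with 65.6% G or C, which is not shown. Capitals would mark a match to any of 4 motifs searched on both strands (TGATGNAA, TGACGTCA, TGACNNNGC and CACGTG), and none of these windows holds one.

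Slc7a8: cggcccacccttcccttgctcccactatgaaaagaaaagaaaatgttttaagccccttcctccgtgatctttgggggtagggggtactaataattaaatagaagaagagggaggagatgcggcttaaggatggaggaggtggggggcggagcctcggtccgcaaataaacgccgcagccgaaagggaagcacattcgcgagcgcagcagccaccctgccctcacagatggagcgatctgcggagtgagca

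Slc43a2: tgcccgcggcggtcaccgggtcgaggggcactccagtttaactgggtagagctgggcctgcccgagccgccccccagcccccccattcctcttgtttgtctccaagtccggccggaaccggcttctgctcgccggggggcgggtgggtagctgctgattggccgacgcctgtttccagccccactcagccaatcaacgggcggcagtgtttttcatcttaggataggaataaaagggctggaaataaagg

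Slc43a2 (ENSMUSG00000038178) encodes LAT4, which carries branched-chain amino acids, phenylalanine and methionine without a heavy chain. It lies on the plus strand at chr11:75531694-75577575. It was read at 211, 220 and 287 CPM in WT lines 36, 47 and 78 and 132, 116 and 120 CPM in KO lines 33, 41 and 72. Every KO line lay well under every WT line, and WT line 78 was the highest. The means were 239 ± 41.5 and 123 ± 8.55 CPM (SD, n = 3 each), and the log2 fold change was -0.97 (SE 0.13), larger than the spread between lines. The adjusted p of 0.0502 in edgeR just missed the threshold. It passed with scaling by library size (0.0492), with a minimum mean of 50 counts (0.0492), with counts divided by 2 (0.0498), in voom (0.0243) and in DESeq2 (4.08e-08). It did not with DESeq2 size factors (0.0538), no filter (0.0611), the macrophage markers left out (0.0613) or the lane in the model (0.529), nor with 1 line left out (0.0859 to 0.230). The difference was -0.81 within lane 6 and -1.31 within lane 7. An antisense gene, Gm45606, shares 9.18% of its exon bases, and reads of the 2 strands cannot be told apart where strand was not counted.

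Slc7a6 encodes y+LAT2, another light chain of Slc3a2, which exports cationic amino acids such as arginine in exchange for neutral ones. It was measured at 37.1, 34.0 and 37.0 CPM in WT lines and 47.8, 42.2 and 46.9 CPM in KO lines 33, 41 and 72. It was the 1 tested transporter whose KO lines all lay above the WT lines. The log2 fold change was 0.34 (SE 0.08, unadjusted p = 0.00396), and the adjusted p was 0.139 in edgeR and 0.00793 in DESeq2. The difference was 0.48 within lane 6 and 0.19 within lane 7.

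Slc1a2 encodes the glutamate transporter GLT-1, best known from astrocytes, and was barely expressed. It stood at 1.55, 1.35 and 1.76 CPM in WT lines and at 0.775, 1.27 and 0.570 CPM in KO lines 33, 41 and 72, so that the highest KO line came close to the lowest WT line. The log2 fold change was -0.84 (SE 0.34) at an unadjusted p of 0.0494 and an adjusted p of 0.339 in edgeR. It passed the 1.5-fold rule under 4 of 16 alternatives, Slc7a15 under 6, and Slc7a8 and Slc43a2 under all 16. Slc7a15 fell just outside the same threshold, with 1.02, 1.18 and 1.25 CPM in WT lines, 0.281, 0.902 and 0.285 CPM in KO lines and an unadjusted p of 0.05002 (log2 fold change -1.24, SE 0.51).

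**Figure D2:**
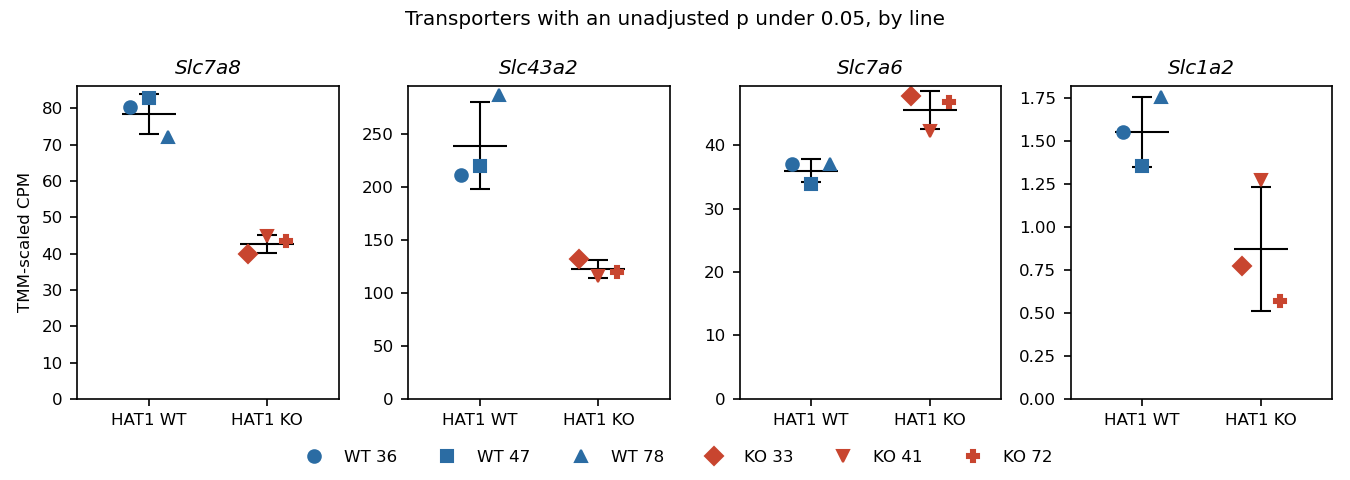
Level in TMM-scaled CPM (vertical axes, each from 0) of the 4 transporters with an unadjusted p under 0.05, in each HAT1 WT (blue) and HAT1 KO (red) line, with mean and SD as black lines. The genotypes do not overlap in any panel, and the gap is widest against the spread for Slc7a8, whose WT lines lie between 72.1 and 82.8 CPM and KO lines between 40.0 and 44.8 CPM.

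The macrophage markers, with Lyz2, Csf1r and Adgre1 among them, summed to 6152 to 6896 CPM in WT lines and 3018 to 3808 CPM in KO lines. Their sum was thus lower in every KO line than in any WT line, as were Slc7a8 and Slc43a2. All 18 markers were lower in HAT1 KO, with a median log2 fold change of -0.81. By at least 1.5-fold with an unadjusted p under 0.05, 16 were lower, beside 4.62% of all tested genes. At an adjusted p under 0.05 in edgeR, 9 were lower, beside 0.528% of all tested genes. None was at 0 in all lines. As percentages of the WT mean, the markers together stood at 56.1%, 58.4% and 46.3% in KO lines 33, 41 and 72. Slc7a8 stood at 51.0%, 57.1% and 55.3%, and Slc43a2 at 55.2%, 48.4% and 49.97%. In WT lines 36, 47 and 78 the markers stood at 100%, 105.7% and 94.3%, and Slc7a8 at 102.4%, 105.6% and 92%. Slc43a2 stood at 88.3%, 91.9% and 119.9% there. WT line 78 was thus the highest line for Slc43a2 and the lowest WT line for the markers. With the 18 marker genes left out of the fit, a choice made after seeing the data, the log2 fold change of Slc7a8 was -0.87 and its adjusted p 0.0437 in edgeR. That step removes the genes and not the cells, and the part of macrophages in the lower Slc7a8 and Slc43a2 was not tested. In such bulk RNA, fewer cells of a type and less RNA per cell cannot be told apart.

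Of 20 tested enzymes of glutamine, glutamate, aspartate, arginine and branched-chain amino acids, 1 was lower at an unadjusted p under 0.05, and of 15 tested amino acid carriers of other families 2 were, beside 8.77% of all tested genes. The medians of these lists were -0.011 and -0.041 on the log2 scale. The 3 genes are given here because they were lower. Glul, glutamine synthetase, was at 132 ± 5.84 CPM in WT and 81.1 ± 5.64 CPM in KO lines (SD, n = 3 each). It fell by 0.70 on the log2 scale (SE 0.07, adjusted p = 0.0357 in edgeR). Slc16a10, a carrier of aromatic amino acids from another family, had 31.4, 36.7 and 46.7 CPM in WT lines and 22.9, 23.3 and 27.1 CPM in KO lines. Its log2 fold change was -0.65 (unadjusted p = 0.00584, adjusted p = 0.165). Slc15a3, a histidine and peptide carrier of endolysosomes best known from immune cells, had 46.0, 44.0 and 31.7 CPM in WT lines and 24.2, 27.5 and 23.9 CPM in KO lines. Its log2 fold change was -0.69 (unadjusted p = 0.00380, adjusted p = 0.135). In each of these genes no KO line reached the lowest WT line.

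**Figure D3:**
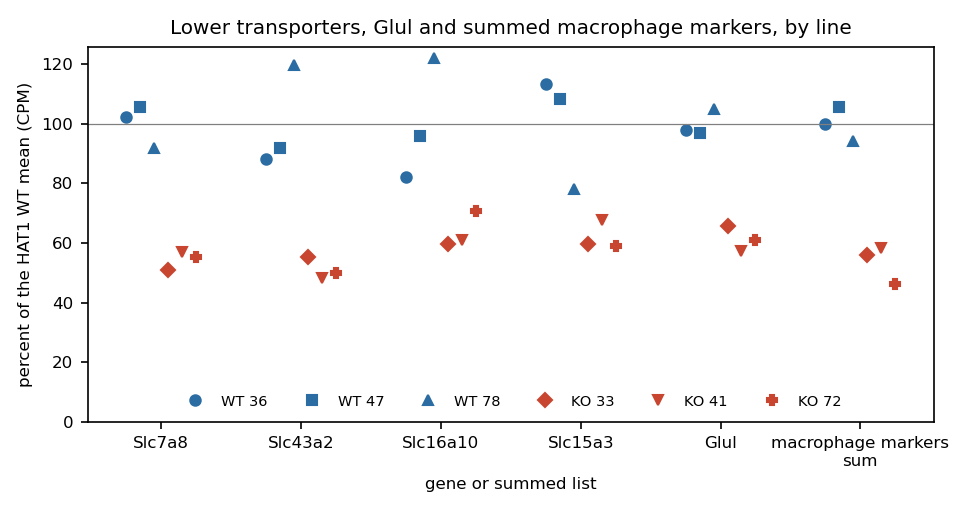
Level of 5 genes and of the summed 18 macrophage markers in each line, as a percentage of the mean of the HAT1 WT lines (vertical axis, from 0, with a line at 100). The HAT1 KO lines (red) stand between 46.3% and 70.7% in every column, and all lie under the HAT1 WT lines (blue), which range from 78.2% to 122%.

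Light chains share the heavy chain Slc3a2, so their levels were compared per kilobase of exon. Slc7a5 encodes LAT1, the main carrier of leucine and other large neutral amino acids in dividing cells, and it led the light chains in every line. It had 336.2, 360 and 306 CPM in WT lines and 581, 487 and 169 CPM in KO lines 33, 41 and 72. KO lines 33 and 41 were thus the 2 highest and KO line 72 the lowest of all, and no difference between genotypes stood out of that spread (log2 fold change 0.30, SE 0.42, adjusted p = 0.786). Without KO line 72 the log2 fold change was 0.69 (SE 0.11, adjusted p = 0.0785). Slc3a2 itself had 217, 230 and 220 CPM in WT lines and 263, 238 and 163 CPM in KO lines, in the same order of KO lines as Slc7a5.

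Of the summed light-chain level per kilobase, Slc7a8 made up 13.3%, 13.0% and 12.3% in WT lines. It made up 4.37% and 5.81% in KO lines 33 and 41, where Slc7a5 was high, and 12.5% in KO line 72, where Slc7a5 was low. Slc7a5 made up 75.1%, 76.2% and 70.6% in WT lines and 85.5%, 85.3% and 65.7% in KO lines. The lower Slc7a8 level was therefore shared by the 3 KO lines while its share of the light chains was not. Slc7a7 (y+LAT1) had 14.0, 14.7 and 32.1 CPM in WT lines and 18.5, 9.69 and 10.95 CPM in KO lines, with overlap. Slc7a11, the cystine and glutamate exchanger of glutathione synthesis, ranged only from 22.2 to 33.9 CPM over all lines. Slc7a10 was too low to test.

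**Figure D4:**
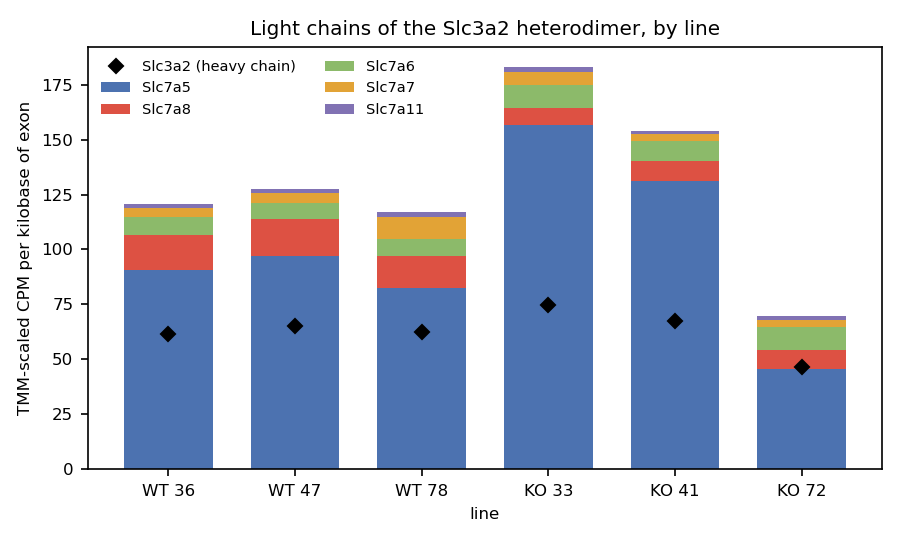
Stacked levels of 5 light chains in each line, in TMM-scaled CPM per kilobase of exon (vertical axis), with the heavy chain Slc3a2 as a black diamond. The Slc7a8 segment is thinner in all 3 KO lines, while the stack is tallest in KO lines 33 and 41 (183 and 154) and shortest in KO line 72 (69.5), beside 117 to 128 in WT lines.

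The cationic amino acid carriers of the Slc7 family, which bring in arginine, lysine and ornithine, did not pass a test. Slc7a1, the broadly expressed one, had 164 to 191 CPM in WT lines and 165 to 234 CPM in KO lines. Slc7a2, known from liver and activated macrophages, had 34.5 to 57.0 CPM in WT lines and 35.7 to 42.0 CPM in KO lines. Slc7a3, on the X chromosome, had 17.2 to 24.3 CPM in WT lines and 32.9, 28.1 and 3.75 CPM in KO lines 33, 41 and 72, again with KO line 72 at the bottom. Of the other Slc7 genes, Slc7a4 was near 1 to 2 CPM throughout, and Slc7a13 and Slc7a14 were too low to test.

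Among the Slc1 genes, Slc1a4 (ASCT1), an exchanger of alanine, serine and cysteine, was the highest per kilobase and changed little, with 102 to 114 CPM in WT lines and 102 to 134 CPM in KO lines. Slc1a5 (ASCT2), the glutamine exchanger of proliferating cells, varied more between lines than between genotypes. It had 43.1, 45.4 and 20.2 CPM in WT lines and 37.3, 62.4 and 12.4 CPM in KO lines. Slc1a3, the glutamate transporter GLAST, had the widest range of all tested transporters, 15.6-fold from 1.70 CPM in KO line 72 to 26.4 CPM in WT line 78. Slc1a6 went the other way, with 16.9 to 24.4 CPM in WT lines, 22.6 and 20.4 CPM in KO lines 33 and 41, and 41.1 CPM in KO line 72. Slc1a1 and Slc1a7 were below 0.5 CPM in every line.

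The Slc38 and Slc36 genes, which handle glutamine and the export of amino acids from lysosomes, mostly kept to narrow ranges, except Slc38a6 with 6.30 to 17.5 CPM over the 6 lines. Slc38a2, the sodium-coupled carrier that cells raise when amino acids run short, had 384 to 482 CPM in WT lines and 392 to 408 CPM in KO lines. Slc38a10 had 249 to 281 CPM and 240 to 289 CPM. Slc38a7, a lysosomal glutamine exporter, had 57.7 to 63.1 CPM and 53.4 to 59.5 CPM, and Slc38a9, the lysosomal arginine sensor upstream of mTORC1, 11.02 to 14.8 CPM and 9.61 to 13.5 CPM. Slc38a1 had 173 to 203 CPM in WT lines and 187, 214 and 109 CPM in KO lines 33, 41 and 72. In the Slc36 family, Slc36a1 had the narrowest range of all tested transporters, 1.14-fold over the 6 lines. Slc36a4 had 63.7 to 69.7 CPM in WT lines and 49.2 to 66.4 CPM in KO lines. The fitted log2 fold changes of the 6 tested Slc38 and 2 tested Slc36 genes lay between -0.17 and 0.022, with every p above the thresholds.

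In the Slc43 family the difference was that of Slc43a2 alone. Slc43a1 (LAT3) had 3.47 to 4.39 CPM in WT lines and 6.67, 4.67 and 1.67 CPM in KO lines, and Slc43a3, a carrier of purine bases, 8.92 to 12.7 CPM and 18.6, 9.04 and 5.55 CPM. Both had KO line 33 highest and KO line 72 lowest.

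The Slc6 family was led by carriers of molecules other than the protein-building amino acids, and none of the 8 tested genes passed a test. Slc6a6, the taurine transporter, had 513 to 541 CPM in WT lines and 425, 467 and 580 CPM in KO lines. Slc6a8, the creatine transporter on the X chromosome, had 175 to 201 CPM and 162 to 201 CPM. Slc6a17, a vesicular carrier of neutral amino acids known from neurons, had 79.4, 115 and 221 CPM in WT lines and 134, 122 and 91.8 CPM in KO lines. Slc6a9, the glycine transporter GlyT1, had 26.9 to 31.0 CPM and 24.8 to 40.1 CPM, but 27.8% of its exon bases lie opposite Ccdc24. Slc6a4, Slc6a7, Slc6a12 and Slc6a15 had at most 2.11 CPM in any line.

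By level per kilobase of exon, the transporters of HAT1 WT pMEFs were ordered Slc7a5 (90.1 CPM per kilobase), Slc3a2 (62.9), Slc6a6 (61.8), Slc38a2 (47.9), Slc38a10 (42.1), Slc6a8 (36.1), Slc1a4 (27.9), Slc43a2 (23.8), Slc7a8 (15.7) and Slc7a1 (15.4). Slc7a8 and its neighbour Slc7a1 did not differ beyond the spread of the lines. In HAT1 KO pMEFs Slc7a8 stood at 8.54 CPM per kilobase and Slc43a2 at 12.2. At the other end, 8 transporters had too few reads for a test, with 11 to 52 counts over all libraries. They were Slc3a1, Slc36a2, Slc38a3, Slc6a2, Slc6a19, Slc7a10, Slc7a13 and Slc7a14, several of which are known from kidney, gut or brain.

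KO line 72 stood apart from the other lines over the whole table, and the transporters shared in this. It was the highest or lowest of the 6 lines for 21 of 37 (56.8%, beside 51.5% of all tested genes), being lowest for 13. The next was KO line 33, at an extreme for 17 (45.9%, beside 37.8%), of which 11 were highest. WT line 36 was at an extreme for 5 (13.5%, beside 25.5%). In Slc7a8, Slc43a2 and Slc7a6 KO line 72 lay between the other KO lines, as it also did in Slc7a2, Slc7a7, Slc38a6 and Slc38a7, among others.

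**Figure D5:**
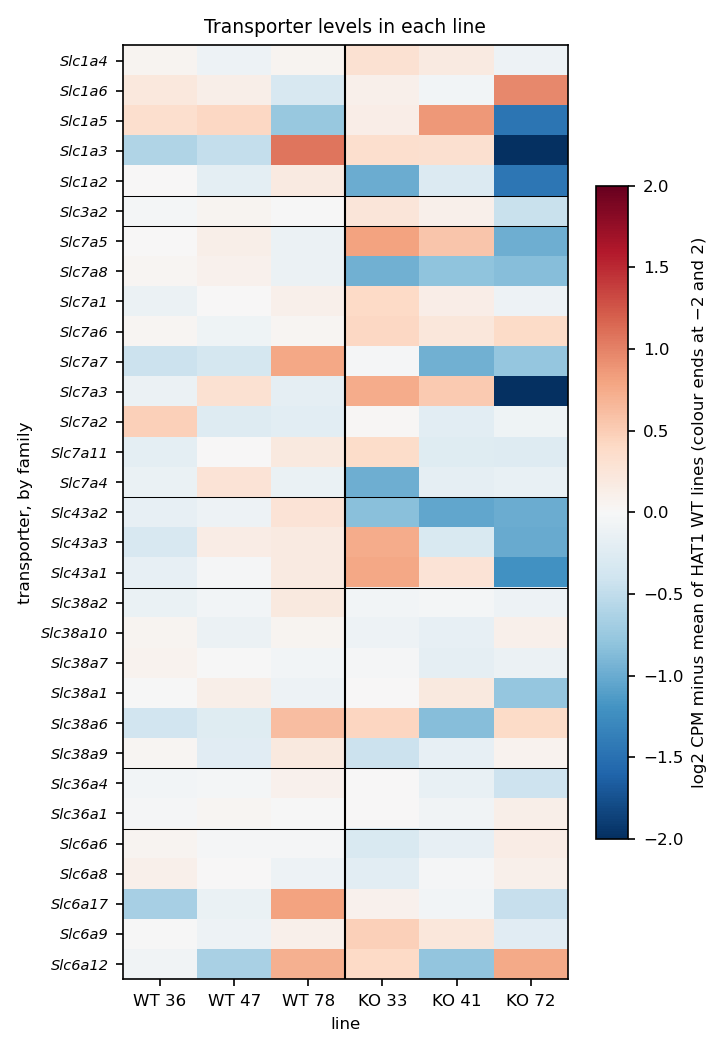
Log2 CPM minus the mean of the HAT1 WT lines (colour) for the tested transporters with a mean of at least 1 CPM, in rows by family, and the 6 lines in columns. Slc7a8 and Slc43a2 are blue in all 3 KO lines, while Slc7a5, Slc7a3, Slc1a5, Slc1a3 and Slc43a1 are blue in KO line 72 and near white or red in KO lines 33 and 41.

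Genes that respond to amino acid supply were counted as context. Cells short of an amino acid raise the factor ATF4, which turns on carriers such as Slc7a11 and Slc3a2 and enzymes such as Asns. Of 26 genes of this response, 0 passed an adjusted p under 0.05 in edgeR. Their median log2 fold change was 0.19, with 19 positive and 7 negative values. At an unadjusted p under 0.05 Atf3 was lower (log2 fold change -1.01, SE 0.29) and Stc2 higher (0.46, SE 0.09). Among all tested genes 8.77% were lower and 5.88% higher by that measure. Asns had 189, 203 and 177 CPM in WT lines and 261, 232 and 161 CPM in KO lines 33, 41 and 72. The list summed to 2322 to 2462 CPM in WT lines and 3162, 2894 and 2032 CPM in KO lines, so KO line 72 was the lowest here too. Atf4 itself had 156 to 206 CPM and 144 to 223 CPM.

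The 20 cytosolic aminoacyl-tRNA synthetases, which load amino acids onto tRNAs, all had a positive log2 fold change, with a median of 0.17. At an unadjusted p under 0.05, 8 of the 20 were higher, beside 5.88% of all tested genes, and 0 passed an adjusted p in edgeR. Kars had 83.4 to 92.5 CPM in WT lines and 101.3 to 112 CPM in KO lines (0.30, SE 0.07), and Mars 114 to 127 CPM and 140 to 149 CPM (0.28, SE 0.07). That count depended on single lines. It was 15 without KO line 72, 4 without WT line 36, WT line 47, KO line 33 or KO line 41 in turn, 2 without WT line 78, and 3 with the lane in the model. Proliferation markers summed to 503 to 752 CPM in WT lines and 719 to 1039 CPM in KO lines. By at least 1.5-fold with an unadjusted p under 0.05, 8 of 12 were higher, beside 1.5% of all tested genes. At an adjusted p in edgeR, 0 of the 12 passed. The part of these markers in the synthetases was not tested.

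Of 28 tested genes through which mTORC1 senses amino acids, 3 were lower at an unadjusted p under 0.05 and none higher. They were Sesn1 (-0.74, SE 0.14), a sestrin of the leucine-sensing branch, Rragd (-0.91, SE 0.34), a Rag GTPase, and Sesn3. Among all tested genes, 8.77% were lower by that measure. Among the enzymes described with Glul, Got2 was higher (0.15, SE 0.06). At an unadjusted p under 0.05, 1 of these 20 tested enzymes was higher, beside 5.88% of all tested genes. Of the 15 tested carriers of other families, 1 had all KO lines above its WT lines, beside 9.59% of all tested genes. It was the mitochondrial aspartate and glutamate carrier Slc25a12, with an unadjusted p of 0.0547 in edgeR (0.31, SE 0.13).

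Promoter windows of RefSeq, from 250 bases before to 50 after each transcript start, were found for 30 of the 45 transporters. The core of the amino acid response element bound by ATF4, TGATGNAA, occurred in 3 of these 30 genes (10%), beside 4.51% of the 27025 genes with a window. The windows below show a match in each, with the motif in capitals, for a gene of the neutral exchangers, for the cystine exchanger and for a light chain. They come from chr11:20332699-20332728, chr3:50443661-50443690 and chr14:54418067-54418096 of GRCm38.p6, all on the minus strand, and in Slc1a4 the motif reads in reverse. Further matches are not shown, at chr3:50443642-50443671 for Slc7a11, where the motif reads in reverse, and at chr14:54417923-54417952 for Slc7a7.

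Slc1a4: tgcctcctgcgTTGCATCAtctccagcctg

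Slc7a11: tctcatgtggcTGATGCAAacctggagaat

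Slc7a7: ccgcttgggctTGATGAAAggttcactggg

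The cyclic AMP response element TGACGTCA occurred in 1 gene, Slc38a6 (3.33%, beside 2.03% of all genes). The antioxidant response core TGACNNNGC occurred in 6 genes, Slc7a6 among them (20%, beside 14%). The E-box CACGTG occurred in 6 (20%, beside 8.09%), namely Slc1a6, Slc1a7, Slc36a1, Slc38a7, Slc43a1 and Slc7a14. A motif is matched by its letters alone, which describes the sequence and is not evidence of binding.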

How the data were processed

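The deposited file gives raw counts of reads for each gene and library, which the authors did not normalize. It also gives results of the authors' test of HAT1 KO against HAT1 WT, made before deposit and not used here, namely a log2 fold change and log2 mean CPM, an F score, and a p-value and q-value per gene. The submitters' notes name mm10 and edgeR. The aligner, the counter and the use of strand are not given in the sources used here. Among deposited counts of 1 to 10, 75.1% were even, beside 55% among those of 101 to 1000.

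The whole table was fitted with edgeR 4.0.16 in R 4.3.3 (filterByExpr, TMM scaling, glmQLFit and glmQLFTest, genotype as the only term, two-sided), with p-values adjusted by Benjamini and Hochberg over 14773 genes. The SE, which is approximate, was taken from the log2 fold change and the F statistic. Levels are TMM-scaled CPM. Positions and exon lengths are those of GENCODE M21, with all 17512 genes matched, and promoter windows are those of RefSeq on GRCm38.p6. With 3 lines against 3, an exact permutation test cannot give a p under 0.1. The script was tested on simulated data.

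The named transporters were Slc7a8, those with an unadjusted p under 0.05 and the 3 highest per kilobase in each family, and further ones were named after their values were seen. The members and lists were chosen with earlier results of these data known. A further gene of these families is not reported here. The alternatives were DESeq2 1.42.0, voom with quality weights in limma 3.58.1, other scalings and filters, counts divided by 2, lane in the model, and lines left out.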

Additional observations from a re-analysis of the deposited data

How the results depend on the processing

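The log2 fold change of Slc7a8 stayed negative throughout, at -0.86 with the lane in the model, -0.74 with WT lines 36 and 47 left out and -0.93 to -0.83 with 1 line left out. Its differences within lanes were -0.99 in lane 6 and -0.69 in lane 7. That of Hat1 was -1.10 with the lane in the model, -0.97 with WT lines 36 and 47 left out and -1.08 to -0.87 with 1 line left out, and each of these lost its call (adjusted p of 0.0587 or more in edgeR). The count of transporters lower at an adjusted p was 2 with library-size scaling, DESeq2, voom, a minimum mean of 50 counts or counts divided by 2, where Slc43a2 joined Slc7a8. Over all genes the lower count, 78 in the main test, was 647 in DESeq2, 263 in voom and 85 to 90 in the other 3 of these. The count of lower transporters was 0 with the lane in the model, and 0 to 1 with 1 line left out. Over all genes, 2 were lower with the lane in the model. Without WT line 36, 47 or 78 or KO line 33 or 41, 0 to 5 were, beside 71 without KO line 72. The count of transporters higher at an adjusted p was 1 in DESeq2, beside 222 of all genes. At 2-fold in place of 1.5-fold, 0 transporters were lower. The count higher by 1.5-fold was 1 with no filter (Slc6a19), 1 with the lane in the model (Slc6a7) and 1 without WT line 36. It was 2 without KO line 72 (Slc7a3 and Slc7a5), so 0 to 2 with 1 line left out. Among all tested genes 1.5% were higher by 1.5-fold in the main test. The shares of all genes under the alternatives and at 2-fold are not given here. Slc7a8 and Slc43a2 passed the 1.5-fold rule for lower genes under every alternative, while Slc1a2 passed it under 4 of the 16 and Slc7a15 under 6.

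Among the transporters named by rule, these signs turned. Slc3a2 was 0.0050 with DESeq2 size factors and in the DESeq2 test, 0.078 in voom, 0.016 with no filter, 0.027 with WT lines 36 and 47 left out, 0.0022 with counts divided by 2 and 0.0027 without the macrophage genes. In voom Slc36a1 was -0.018, Slc38a2 0.0016, Slc43a3 0.076 and Slc6a17 0.17. With the lane in the model Slc36a1 was -0.012 and Slc6a8 0.0017, and with WT lines 36 and 47 left out Slc6a8 was 0.082. With 1 line left out, the lowest and highest values were -0.53 and 0.47 for Slc1a5, -0.020 and 0.065 for Slc36a1, -0.13 and 0.037 for Slc38a2, -0.15 and 0.19 for Slc3a2, -0.30 and 0.55 for Slc43a1, -0.63 and 0.30 for Slc43a3, -0.53 and 0.26 for Slc6a17, -0.22 and 0.0035 for Slc6a6, -0.10 and 0.039 for Slc6a8, and -0.025 and 0.69 for Slc7a5. The cause was not tested. No paired analysis was possible because the genotypes share no replicate numbers. Counting error matters only where a transporter has few counts. Elsewhere the spread between 3 lines sets the precision. Embryo sex and lane are only partly balanced between genotypes, since WT line 78 alone among WT lines has few Y-linked reads, as the KO lines do. Against that line alone Slc43a2 was at -1.21.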
